A study of Mus musculus with 48 samples.

Results

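Described here are 7 mouse genes of MHC class II antigen presentation, taken by symbol from a table of 54532 genes; all 7 were found and passed the filter on low counts. They are the chains H2-Aa, H2-Ab1 and H2-Eb1, the invariant chain Cd74, the peptide exchangers H2-DMa and H2-DMb1, and Ciita, the coactivator on which class II transcription depends. Class II molecules carry peptides from taken-up proteins to the surface of antigen-presenting cells, where CD4+ T cells read them. An alpha and a beta chain pair in the endoplasmic reticulum, the invariant chain guards their groove, and in the endosome the H2-DM dimer exchanges the last piece of that chain for a peptide. Dendritic cells and B cells express these genes constitutively, and macrophages and enterocytes raise them under interferon gamma.

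The samples were full-thickness 2 cm pieces of small intestine from C57Bl/6J mice, either duodenum next to the pylorus or ileum next to the cecum, and their total RNA was sequenced. Mice were killed on postnatal days 0, 2, 4, 6 and 8 and at weeks 2, 3 and 4, and each region had 3 samples at each age. The labels call the housing standard germ-free. They also give both sexes, litters that usually supplied several ages, and a change from the dam to chow at day 21. No group carried a transgene or a treatment, and a piece of this kind holds every cell type of the wall.

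Of the 48 samples, 46 were used. The samples numbered 3 at day 6 were left out because each carried the marker genes of the other region, so day 6 has n = 2. Total estimated counts per sample ran from 16824021 to 65042327, and the lowest belonged to an ileum week 4 sample. Region markers went partly against the label in 3 further samples. Duodenum day 0 number 1 had a summed 5.63 counts scaled to library size (CPM) of the duodenum markers Pdx1, Reg1 and Cyp4a10 beside 30.4 CPM of the ileum markers Fabp6, Fgf15 and Slc10a2. Ileum day 0 number 2 had 53.0 CPM of the duodenum markers, and ileum week 4 number 1 had 110 CPM of the ileum markers against 2000 and 2303 in the other ileum week 4 samples. Duodenum day 0 numbers 2 and 3 held both the female transcript Xist (743 and 814 CPM) and the Y-linked Ddx3y (21.0 and 25.0 CPM). Sex was also uneven over ages: in each region all 3 week 4 samples had Xist and no Ddx3y, while 2 of the 3 week 3 samples had Ddx3y without Xist. All used day 6 and day 8 samples also had Xist and no Ddx3y. Ileum day 0 and each week 2 group had 1 of 3 samples with Ddx3y without Xist. Comparisons of day 8 with day 0 or week 2 therefore also differ in sex makeup. For the main comparisons that rest on these samples, values without them are given beside the result.

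Of the 7 genes, 5 lie in the MHC on mouse chromosome 17 (GRCm38, GENCODE annotation). H2-DMa spans chr17:34119541-34139101 on the plus strand and H2-DMb1 spans chr17:34153072-34160230 on the plus strand. H2-Ab1 lies at chr17:34257689-34269419 on the plus strand and H2-Aa at chr17:34282744-34287823 on the minus strand. H2-Eb1 lies at chr17:34305867-34316674 on the plus strand. Ciita is on chromosome 16 at chr16:10480059-10528418 on the plus strand, and Cd74 also lies outside the MHC.

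Class II promoters share boxes that a common complex reads: RFX proteins bind the X box, NF-Y binds the Y box, an inverted CCAAT, and CIITA joins the complex without touching DNA. Because these genes moved together, the proximal promoters in the RefSeq table (GRCm38.p6) were searched over the 250 bases upstream of each start for CCAAT and for the X box letters AACNGATG, both strands. Of the 7 genes, 4 had an entry. The stretches below are shown because 2 of the chain and exchange genes, and their neighbours H2-Eb2 and H2-DMb2, held both motifs at a like spacing. Capitals mark ATTGG, the reverse complement of CCAAT, and any AACNGATG. Each line is read 5′ to 3′ on the strand of its gene. The starts are those of RefSeq and can lie inside the GENCODE span, as that of H2-DMb1 does.
H2-Aa (chr17:34287852-34287931, minus strand): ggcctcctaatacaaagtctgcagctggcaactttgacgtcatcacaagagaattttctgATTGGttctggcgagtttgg
H2-Eb1 (chr17:34305748-34305827, plus strand): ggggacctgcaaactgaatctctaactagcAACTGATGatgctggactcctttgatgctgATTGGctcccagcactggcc
H2-DMb1 (chr17:34153070-34153149, plus strand): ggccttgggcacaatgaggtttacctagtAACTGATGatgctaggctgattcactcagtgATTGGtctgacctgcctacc
H2-DMb2 (chr17:34145099-34145178, plus strand): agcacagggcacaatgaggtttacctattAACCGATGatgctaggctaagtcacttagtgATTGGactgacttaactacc
H2-Eb2 (chr17:34325515-34325594, plus strand): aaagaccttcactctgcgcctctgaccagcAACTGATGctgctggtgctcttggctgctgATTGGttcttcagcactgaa

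The motifs lay 22 bases apart in H2-Eb1 and H2-Eb2 and 23 bases apart in H2-DMb1 and H2-DMb2. H2-Aa held CCAAT without an exact AACNGATG, as did 1 of the 2 H2-DMa windows and the neighbours H2-Oa and H2-Ob. Only exact matches were searched, so these windows can still hold an X box of other letters. Over 27025 genes in the table, 37.5% held CCAAT in a window, 2.27% held AACNGATG and 0.777% held both. CCAAT alone is therefore common, and the pair of motifs is rare in windows of this length.

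All 7 genes varied with age in both regions, in edgeR's quasi-likelihood test with Benjamini-Hochberg adjustment over all 21986 genes tested (adjusted p under 0.05, here "called"). The age effect was called for 67.4% of all genes in duodenum and for 58.7% in ileum, so that count alone says little about these genes. The highest levels were those of ileum week 4. For each of the 7 genes, the 3 ileum week 4 samples lay above all 43 other samples, an order that 2.42% of the genes tested had. The next highest sample was duodenum week 4 number 2 for every gene.

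Cd74, the invariant chain, is given first. Its level in ileum was 6.32, 10.3 and 15.5 CPM at day 0 and 155, 362 and 271 CPM at week 4. Duodenum samples had 11.6, 19.5 and 31.7 CPM at day 0 and 49.8, 80.4 and 58.7 CPM at week 4. The week 4 samples lay above the day 0 samples of the same region without overlap, a separation whose share over all genes was not counted. The rise from day 0 to week 4 was the steeper in ileum. Between these ages Cd74 had similar levels at ileum day 6 (48 and 54.0 CPM) and week 2 in both regions (38.0 to 50.9 CPM in duodenum, 36.5 to 54.6 CPM in ileum). The week 3 samples were lower than week 2, at 27.3 to 31.7 CPM in duodenum, within reach of the highest day 0 sample, and 18.8 to 32.5 CPM in ileum.

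Ordered by mean level, the 16 groups ran in much the same way for the 3 chain genes and Cd74. Ileum week 4 stood first without overlapping the next group. Duodenum week 4, ileum day 6 and both week 2 groups followed and overlapped in turn, except that for H2-Ab1 duodenum week 4 also stood clear of the next. Ileum day 0 was lowest for H2-Aa, H2-Ab1, H2-Eb1, Cd74 and Ciita. H2-DMb1 was lowest at ileum day 2, and H2-DMa at duodenum day 8.

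Ciita was likewise highest at week 4. Between day 2 and day 4 in duodenum the mean of Cd74 went from 24.0 to 31.3 CPM. The mean of Ciita went from 1.91 to 1.27 CPM. The day 4 mean of Cd74 rests on number 3 (53.7 CPM), since the other samples had 18.1 and 22.1 CPM. Whether the courses of both genes differed was not tested. In duodenum Ciita ran from 1.31 to 2.32 CPM at day 2, from 0.862 to 1.84 CPM at day 4 and from 0.857 to 1.8 CPM at day 8, and it stood at 2.72 to 4.04 CPM at week 2 and 1.86 to 2.23 CPM at week 3. In ileum it ran from 0.832 to 1.29 CPM at day 2 and from 2.78 to 4.21 CPM at week 2. The duodenum day 6 samples were apart, with 22.4 and 6.36 CPM of Cd74 and 2.86 and 1.39 CPM of Ciita, and for Cd74 the second was the lowest of all duodenum samples. The exchange gene H2-DMa ran between 1.11 and 4.08 CPM in the 40 younger samples. H2-DMb1, which codes for its partner, ran between 0.222 and 2.86 CPM in them.

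**Figure D1:**
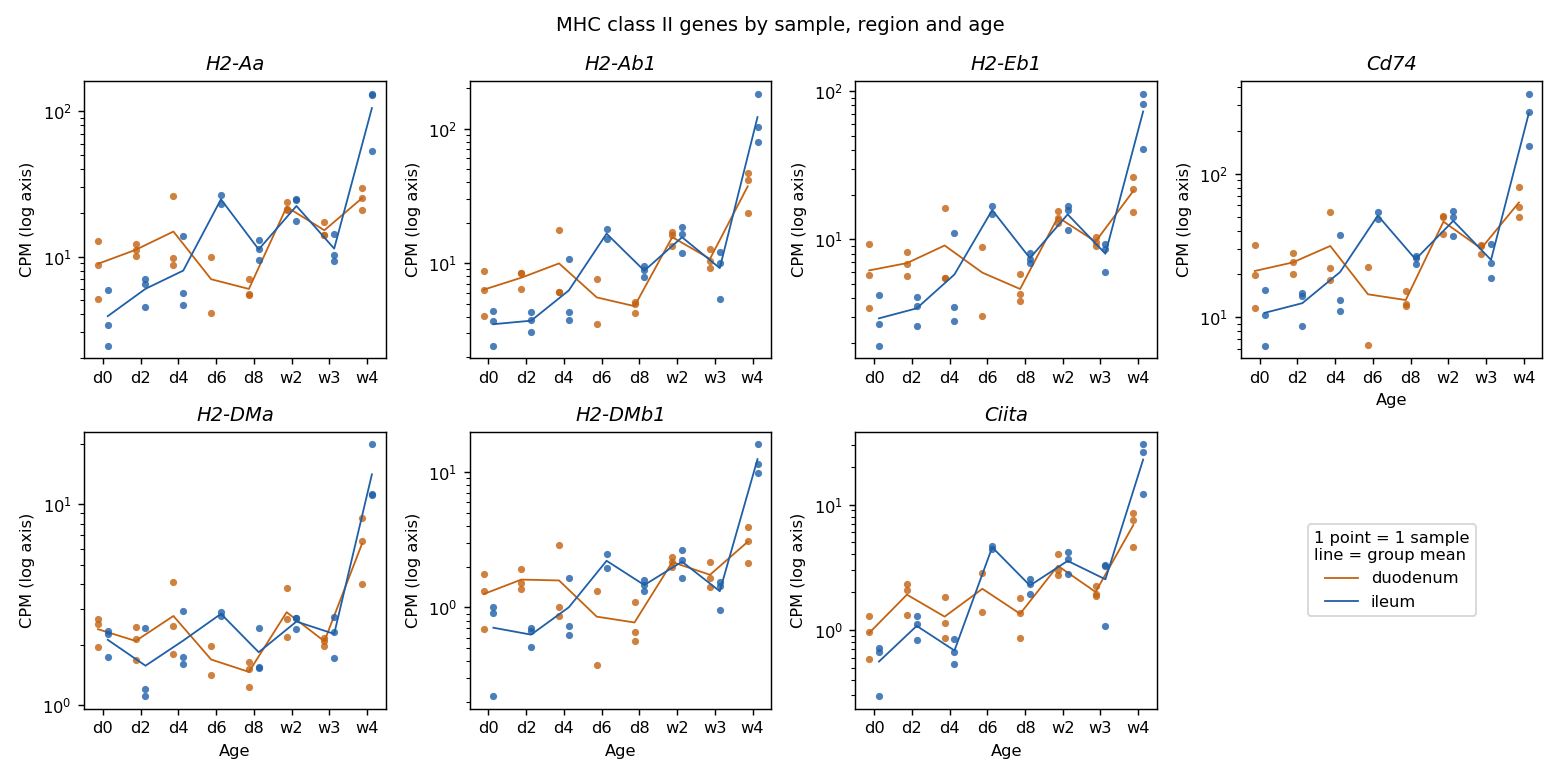
Level of the 7 class II genes (CPM, log axis) against age, 1 point per sample with lines through the group means, duodenum in orange and ileum in blue. In every panel the 3 ileum week 4 points lie above all other points, for Cd74 at 155 to 362 CPM against 80.4 CPM at most elsewhere.

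From day 0 to week 4 the ileum rise covered all 7 genes, where 41.9% of all genes were called and 21.5% were called higher. H2-Aa went from 2.44, 3.38 and 5.84 CPM to 53.1, 131 and 133 CPM, which is 26.8-fold (log2 4.74, SE 0.45, edgeR adjusted p = 7.5e-11). H2-Ab1, which pairs with H2-Aa, went from 2.44, 3.72 and 4.39 CPM to 80, 182 and 103 CPM, a 34.4-fold rise. H2-Eb1 went from 1.92, 2.67 and 4.2 CPM to 40.7, 96.2 and 81.8 CPM, a 24.5-fold rise. Within each gene the 2 ages were far apart, and ileum week 4 number 1 was the lowest of its group for each chain.

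The coactivator had the largest ratio. Ciita rose from 0.296, 0.668 and 0.713 CPM at ileum day 0 to 12.1, 26.2 and 30.3 CPM at week 4, 40.1-fold (log2 5.33, SE 0.44, edgeR adjusted p = 1.2e-12). Of the exchangers, H2-DMb1 rose from 0.222, 1.00 and 0.903 CPM to 9.79, 15.9 and 11.4 CPM, 17.3-fold. H2-DMa moved least, from 1.74, 2.25 and 2.35 CPM to 11.1, 19.8 and 11.2 CPM, 6.65-fold (log2 2.73, SE 0.33). None of these calls changed when any of the 6 samples was left out.

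In duodenum the same interval gave 7 of 7 genes higher, where 40.5% of all genes were called and 20.4% were called higher, with folds of 2.41 to 7.16. Ciita again had the largest, from 0.582, 0.956 and 1.29 CPM to 4.61, 8.5 and 7.46 CPM (log2 2.84, SE 0.40, edgeR adjusted p = 2.2e-07). H2-Ab1 rose from 4.02, 6.33 and 8.67 CPM to 23.6, 46.6 and 41.4 CPM, 5.84-fold, while its partner H2-Aa rose 2.82-fold, from 5.13, 8.74 and 12.9 CPM to 21.0, 29.5 and 25.4 CPM. The least was H2-DMb1 (log2 1.27, SE 0.43, edgeR adjusted p = 0.017). Its call was lost without duodenum day 0 number 1 (adjusted p = 0.110) or without duodenum week 4 number 2 (0.0626). Without the day 0 samples numbered 2 and 3 that carried both sex markers, all 7 genes were called, with the log2 fold change of H2-Aa at 2.31. That leaves 1 duodenum day 0 sample, the one with ileum markers, which is assumed to vary like the other groups.

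The difference between these 2 rises was itself tested. The change from day 0 to week 4 was larger in ileum for 6 of 7 genes, against 3.14% of genes called in that direction and 5.99% in either. In log2 units the excess was 3.24 (SE 0.56, edgeR adjusted p = 0.00051) for H2-Aa, 3.03 (0.62) for Cd74 and 2.49 (0.56) for Ciita. H2-Ab1, H2-Eb1 and H2-DMb1 lay between 2.56 and 2.85, and H2-DMa, at 1.32 (SE 0.44), was not called (adjusted p = 0.066). Without the duodenum day 0 samples numbered 2 and 3, only H2-Aa remained called of the 7 (2.46, adjusted p = 0.0477), with Cd74 at 2.18 (adjusted p = 0.111). That fit rests on 1 duodenum day 0 sample, which is itself the one with ileum markers. Without that sample alone, 6 of 7 were called and H2-Aa had 3.52. Without ileum day 0 number 2, 6 of 7 were called (H2-Aa 3.15), and without ileum week 4 number 1, 7 of 7 (H2-Aa 3.54). Over all 8 ages, the region by age interaction was called for 6 of 7 genes, against 22.4% of all genes, with H2-DMa again the exception (adjusted p = 0.055). It was called for 7 of 7 with a term for sex.

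The rise was not steady. Between day 0 and day 8, 5 of 7 genes rose in ileum, where 19.3% of all genes were called and 8.56% were called higher. Ciita rose most, to 2.31, 2.54 and 1.92 CPM at day 8 (log2 1.99, SE 0.42, edgeR adjusted p = 0.00059). H2-Aa reached 13, 11.2 and 9.42 CPM (log2 1.5, SE 0.41, adjusted p = 0.0073), H2-Ab1 rose by 1.31, H2-Eb1 by 1.33 and Cd74 by 1.23 on the log2 scale. H2-DMb1 (log2 1.03) and H2-DMa (log2 −0.20) were not called. The 5 calls fell to 1 without ileum day 0 number 1, and to 2 without ileum day 8 number 1. They fell to 3 without ileum day 0 number 2, the sample with duodenum markers, and to 3 without ileum day 8 number 2 or number 3. Ciita was called in each of these fits. With a term for sex 4 were called, and Cd74 was not (log2 1.16, adjusted p = 0.0560).

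In duodenum over the same days, none of the 7 genes was called with edgeR, where 41.2% of all genes were. At an unadjusted p under 0.05 the count was 1, and with DESeq2 it was also 1. With any 1 of the 6 samples left out, the count was 0. The median log2 fold change of the 7 was −0.58, beside −0.06 for all genes. The higher day 0 levels were those of numbers 2 and 3, which held both sex markers. Their Cd74 was 19.5 and 31.7 CPM, against 11.6 CPM in number 1 and 11.8 to 15.2 CPM at day 8. Whether this step differed between regions was not tested on its own.

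At ileum day 6 the levels of H2-Aa and Ciita were above those of day 4 and day 8. H2-Aa had 23.0 and 26.6 CPM there, against 4.62 to 13.8 CPM at day 4 and 9.42 to 13 CPM at day 8. Ciita had 4.43 and 4.69 CPM, against 0.538 to 0.843 CPM at day 4. H2-DMa overlapped, with 2.78 and 2.91 CPM at day 6 against 1.61 to 2.95 CPM at day 4. The share of all genes that were highest at day 6 was not counted. With 2 samples, this age is given as a description.

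At day 4 a single sample per region was high. Duodenum day 4 number 3 had 53.7 CPM of Cd74 against 18.1 and 22.1 CPM in the others, and 26.2 CPM of H2-Aa against 8.71 and 9.73 CPM. Ileum day 4 number 2 had 37.5 CPM of Cd74 against 13.2 and 11 CPM. Across genes, the deviations of these 2 samples from their group means correlated at 0.730. The labels do not say whether they share an animal. Both samples were also highest of their group in the summed dendritic cell markers (11.9 against 5.15 and 5.99 CPM in duodenum, 11.1 against 3.73 and 7.69 CPM in ileum) and in the summed macrophage markers. The part of those cells in the class II level was not tested. Fewer cells of a type and less RNA per cell cannot be told apart in bulk tissue, here or in any result that follows.

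Between day 8 and week 2, all 7 genes rose in duodenum, where 15.7% of all genes were called and 6.75% were called higher. Cd74 went from 12.4, 11.8 and 15.2 CPM to 50.9, 38.0 and 49.8 CPM, 3.52-fold (log2 1.82, SE 0.44, edgeR adjusted p = 0.0052). H2-Aa rose 3.67-fold, from 5.41, 5.50 and 7.06 CPM to 23.7, 21.3 and 20.8 CPM. The smallest rise was that of H2-DMa, 1.99-fold (adjusted p = 0.030). H2-Aa, H2-Ab1 and Cd74 were called whichever sample was left out. The other 4 genes were not, and the count fell to 3 without duodenum day 8 number 2 or duodenum week 2 number 1, and to 4 without duodenum day 8 number 1.

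Ileum showed no called gene at this step with edgeR, against 6.64% of all genes, although 4 had an unadjusted p under 0.05 and the median log2 fold change was 0.83. DESeq2 also called 0 of 7. The labels put the change of diet at day 21, about where the step from week 2 to week 3 ended. Over that step none of the 7 was called in either region, against 18.3% of all genes in duodenum and 26.8% in ileum. DESeq2 likewise called none, and at an unadjusted p under 0.05 the counts were 0 in duodenum and 3 in ileum. With only the compared groups in the fit, 5 of 7 were called in duodenum and 3 in ileum, and without the day 4 samples 4 were called in ileum. The median log2 fold changes were −0.54 in duodenum and −0.77 in ileum.

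Of the steps compared in ileum, the largest came last. From week 3 to week 4, 7 of 7 genes rose in ileum, where 16.1% of all genes were called and 8.26% were called higher. H2-Ab1 rose 13.3-fold from 5.44, 12.1 and 10 CPM (log2 3.73, SE 0.41, edgeR adjusted p = 2.1e-08), and Cd74 10.5-fold from 18.8, 32.5 and 23.7 CPM. H2-DMa, the least, rose 6.24-fold. The only ileum week 3 sample with Xist, number 1, had 18.8 CPM of Cd74 against 32.5 and 23.7 CPM in the others. As it is 1 sample, the part of sex cannot be told apart from other differences of that sample. With a term for sex in the fit the 7 calls stood, and the log2 fold change of Cd74 was 3.13 in place of 3.39. Without ileum week 4 number 1 the 7 calls also stood, with Cd74 at 3.64.

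In duodenum, 3 of 7 genes were called over that week, where 12.7% of all genes were called and 7.75% were called higher. They were Ciita (log2 1.77, SE 0.37, edgeR adjusted p = 0.0009), H2-Ab1 (1.79, SE 0.38, 0.0011) and H2-DMa (1.61, SE 0.32, 0.00042). H2-Aa moved from 14.1, 17.4 and 14.0 CPM to 21.0, 29.5 and 25.4 CPM and was not called (log2 0.74, adjusted p = 0.21), although its samples did not overlap. The share of all genes without overlap between these 2 groups was not counted. With only these 2 groups in the fit, 6 of 7 were called.

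**Figure D2:**
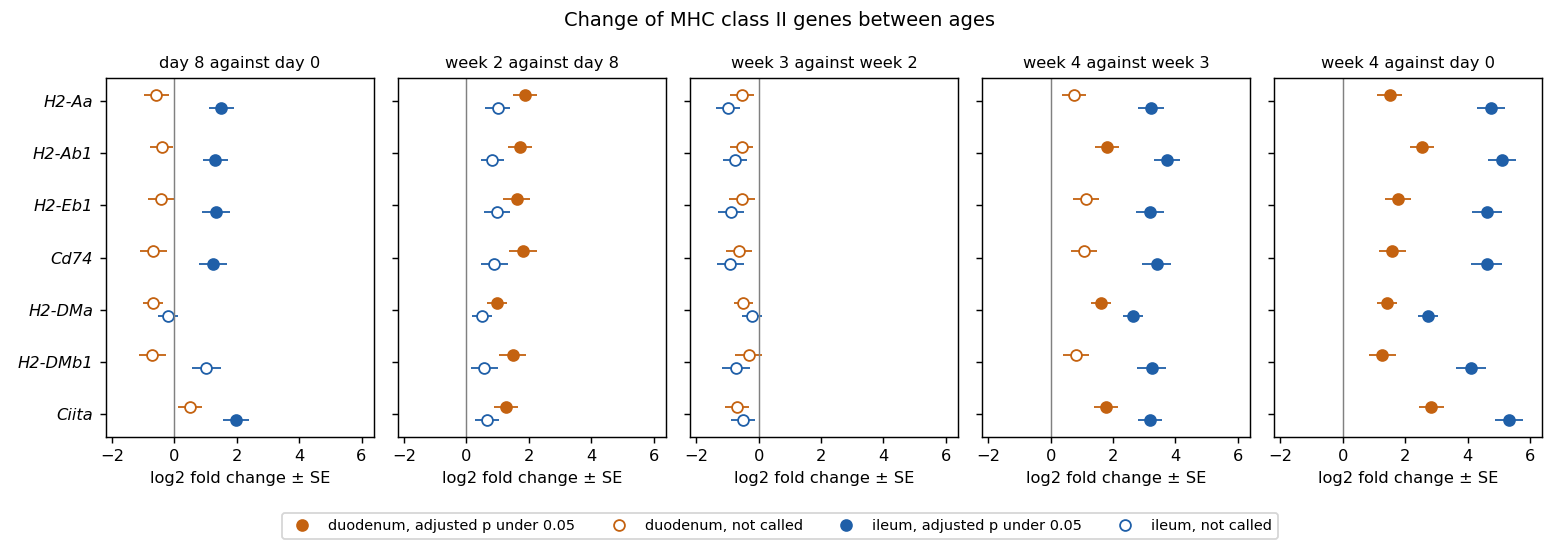
Log2 fold change (x axis, with SE bars) of the 7 class II genes between ages, 1 panel per comparison, duodenum in orange and ileum in blue, filled where the adjusted p was under 0.05. Duodenum is filled for all genes from day 8 to week 2, and ileum for 5 genes from day 0 to day 8 and for 7 from week 3 to week 4.

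Of the 5 ages compared between regions, week 4 alone gave called differences in the fit of all groups. Averaged over the 8 ages, 0 of 7 differed between ileum and duodenum with edgeR, against 62.1% of all genes, with 0 at an unadjusted p under 0.05 and 0 with DESeq2, but 4 of 7 were called without the day 4 samples. At day 0 none was called, against 6.1% of genes, with 4 at an unadjusted p under 0.05, a median log2 ratio of −0.85 and 1 call with DESeq2. Leaving out 1 day 0 sample at a time gave 0 to 1 calls. All 3 duodenum day 0 samples and ileum day 0 number 2 had mixed sex or region markers. At day 8 none was called, against 39.6%, with 4 at an unadjusted p under 0.05, a median of 0.87 and 3 calls with DESeq2. With only the day 8 groups in the fit, 6 of 7 were called at day 8. At week 2 (22.4% of genes) and week 3 (14.2%) none was called with either tool, and none had an unadjusted p under 0.05. These values do not show that the regions were alike at those ages.

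At week 4 all 7 genes were higher in ileum, where 28.4% of all genes were called and 14.5% were called higher. The ratio was 4.17-fold for H2-Aa (log2 2.06, SE 0.39, edgeR adjusted p = 0.00026) and likewise for Cd74, and 2.22-fold for H2-DMa (log2 1.15, SE 0.31, adjusted p = 0.0063). The other 4 genes lay between 3.28-fold and 4.07-fold. As given above, the ileum week 4 samples lay above every other sample for each gene, an order that 2.42% of the genes tested had. H2-DMa lost its call without duodenum week 4 number 1 (adjusted p = 0.0561) or ileum week 4 number 2 (0.0659). Without ileum week 4 number 1, whose ileum markers were low, all 7 calls stood and the log2 ratio of H2-Aa was 2.37.

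Of the ratios to H2-Aa that were computed, only that of H2-Ab1 left the range of the younger samples at week 4, in all but ileum number 3. The difference was not tested. Ratios between other members were not computed. H2-Ab1 and H2-Aa encode the beta and alpha chain of the same molecule. In the 40 samples of younger age the count of H2-Ab1 was 0.581 to 1.10 times that of H2-Aa. In duodenum week 4 it was 1.13, 1.58 and 1.63 times, above all of them. In ileum week 4 it was 1.51 and 1.39 times in numbers 1 and 2, and 0.780 times in number 3. The ratios of H2-Eb1 to H2-Aa and of Cd74 to H2-Aa stayed within the range of the younger samples (0.500 to 0.901 and 1.56 to 3.04).

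**Figure D3:**
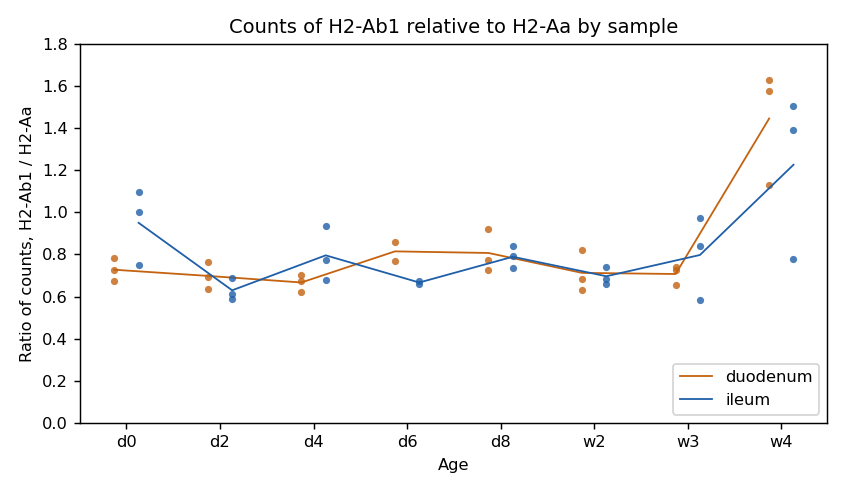
Count of H2-Ab1 divided by the count of H2-Aa (y axis) against age, 1 point per sample with lines through the group means, duodenum in orange and ileum in blue. At week 4, 5 of the 6 samples lie above the 0.581 to 1.10 range of all younger samples, and ileum number 3 lies inside it at 0.780.

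The 7 genes ran together across samples. Pairwise Pearson correlations of log2 CPM over the 46 samples were 0.795 to 0.988, with H2-Eb1 and Cd74 the closest pair. After the group means were removed they were 0.556 to 0.969, and the lowest was that of Ciita with H2-DMa. The samples share library depth and tissue makeup between genes, so these are descriptions. Ranked by correlation with the mean standardised profile of the 7 over 46 samples, the closest of 12350 genes were Cd52 (0.911), Coro1a (0.910), Ptprc (0.900), Itgb2 (0.897), Arhgap30 (0.889), Ncf1 (0.887), Ighm (0.886) and Laptm5 (0.884). Ptprc encodes the pan-leukocyte protein CD45 and Ighm the heavy chain of IgM. Ighm stood at 97.9 CPM in ileum week 4, 21.9 CPM in ileum day 6 and 21.5 CPM in duodenum week 4.

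The lists of other genes that follow are given by their counts of called genes and their median log2 fold change. Over all genes that median lay between −0.06 and 0.08 in each comparison, and the shares called are those given above.

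Other class II genes also rose by week 4, but not over the same earlier steps. H2-Oa and H2-Ob form the H2-O dimer, a B cell inhibitor of H2-DM; H2-DMb2 is a second DM beta gene, and H2-Eb2 a second E beta gene. All 4 that could be tested rose from day 0 to week 4 in both regions, rose from week 3 to week 4 in both, and were higher in ileum than in duodenum at week 4 (median log2 ratio 2.46, beside 0.08 for all genes). In duodenum, 3 of these 4 rose between day 0 and day 8 (median log2 3.32), a step at which no member was called. From day 8 to week 2, when the 7 members rose, 0 of 4 were called with edgeR (0 at an unadjusted p under 0.05 and 0 with DESeq2, median log2 0.08). H2-Ob had 0.0674 ± 0.0610 CPM at ileum day 0 and 37.7 ± 21.9 CPM at ileum week 4 (SD, n = 3), with 5.70 ± 0.826 CPM at duodenum week 4. H2-Eb2 had 11.5 ± 8.22 CPM at ileum week 4 and 1.27 ± 0.218 CPM at duodenum week 4. It had no count in any duodenum day 0 sample, so its rise there was at least 13.9-fold (against 3 counts per library). H2-Ea, the E alpha gene that C57BL/6 mice are known not to express, had 4 counts in all 46 samples together. A share of 31.4% of the 31-base words of H2-DMb1 also occurs in another gene, all of it shared with H2-DMb2, so those 2 values depend on how the authors' estimate split such reads. For H2-DMa 9.23% is shared, with Brd2, and for the other 5 genes under 3%.

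B cell markers moved with the class II genes in every step that ended at week 4. All 8 listed markers, among them Ms4a1, Pax5 and Fcer2a, rose from day 0 to week 4 in both regions, and 7 of 8 were higher in ileum at week 4 (median log2 ratio 2.42). Their summed level was 105 to 383 CPM in ileum week 4 and 42.4 to 57.9 CPM in duodenum week 4, against 1.85 to 2.49 CPM at ileum day 0 and 2.36 to 3.28 CPM at duodenum day 0. It was 32.2 and 49.8 CPM at ileum day 6. From day 0 to day 8 in ileum, when 5 of 7 members rose, DESeq2 called 7 of 8 B cell markers higher. Over the week 2 rise of duodenum, 0 of 8 B cell markers were called with edgeR (0 at an unadjusted p under 0.05 and 0 with DESeq2), and the sum was 8.06 to 17.5 CPM at day 8 and 9.42 to 15.8 CPM at week 2. Within ileum week 4, number 3 had the highest B cell sum (383 CPM) and number 2 the highest Cd74 (362 CPM). Number 2 was also highest for H2-Ab1, H2-Eb1, H2-DMa and H2-DMb1. Number 3 was highest for H2-Aa (133 against 131 CPM in number 2) and for Ciita (30.3 against 26.2 CPM). The part of B cells in the class II level was not tested.

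Macrophage markers took another path. Their 10 genes, with Csf1r, the receptor for the growth factor CSF1, as the largest fall, fell in duodenum from day 0 to week 4 in 9 of 10 cases (median log2 −1.61) and in ileum in 4 of 10 (median −0.64), while class II rose. Csf1r went from 90.3 ± 19.1 to 6.24 ± 1.62 CPM in duodenum and from 77.7 ± 12.1 to 6.59 ± 0.375 CPM in ileum. At week 4 none of the 10 was called between regions with edgeR (0 at an unadjusted p under 0.05 and 0 with DESeq2), with a median log2 ratio of 0.08. In the duodenum step from day 8 to week 2, however, 6 of 10 macrophage markers rose (median log2 1.65), and their sum went from 67.2 to 72.1 CPM to 111 to 160 CPM. Other lists given below also rose at that step. DESeq2 called 7 of 10 macrophage markers higher there, 8 of 10 class I genes and 6 of 12 interferon gamma targets. It also called 6 of 7 interferon gamma signalling genes and 3 of 6 lysosomal enzymes higher, and 0 lower in each of these lists. Between day 0 and day 8, when class II genes were not called in duodenum, 10 of 10 macrophage markers fell there and 6 of 8 B cell markers rose. Their part in these class II values was not tested.

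Of the 7 dendritic cell markers tested, 4 rose in ileum from day 0 to week 4 and 1 rose and 1 fell in duodenum. At week 4, 3 of 7 were higher in ileum (median log2 ratio 1.05). Flt3, the receptor that dendritic cell precursors need, had 1.17 ± 0.585 CPM in ileum week 4 and 0.339 ± 0.164 CPM in duodenum week 4. Ccr7, which guides migrating dendritic cells and naive lymphocytes, had no count at ileum day 0 and 2.65 ± 1.28 CPM at week 4, at least 25.9-fold higher. The summed list was 9.44 to 19.5 CPM in ileum week 4 and 5.48 to 7.70 CPM in duodenum week 4, and 14.1 and 14.6 CPM at ileum day 6. T cell markers rose in 8 of 8 cases in ileum and 6 of 8 in duodenum from day 0 to week 4, but only Cd4 and Cd5 of the 8 were higher in ileum than in duodenum at week 4 (median log2 ratio 0.42). Of the genes of Peyer's patch stroma and epithelium, 3 of 6 were higher in ileum at that age. Smooth muscle genes, 3 of 4, were also higher in ileum there (median log2 ratio 1.93). The part of these tissue layers in the class II ratio was not tested. Of 6 epithelial genes, 0 were called between regions at week 4 with edgeR (0 at an unadjusted p under 0.05 and 0 with DESeq2, median log2 ratio −0.08). Of type 3 innate lymphoid cell genes, 3 of 6 could be tested, and 1 rose and 2 fell in each region from day 0 to week 4.

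**Figure D4:**
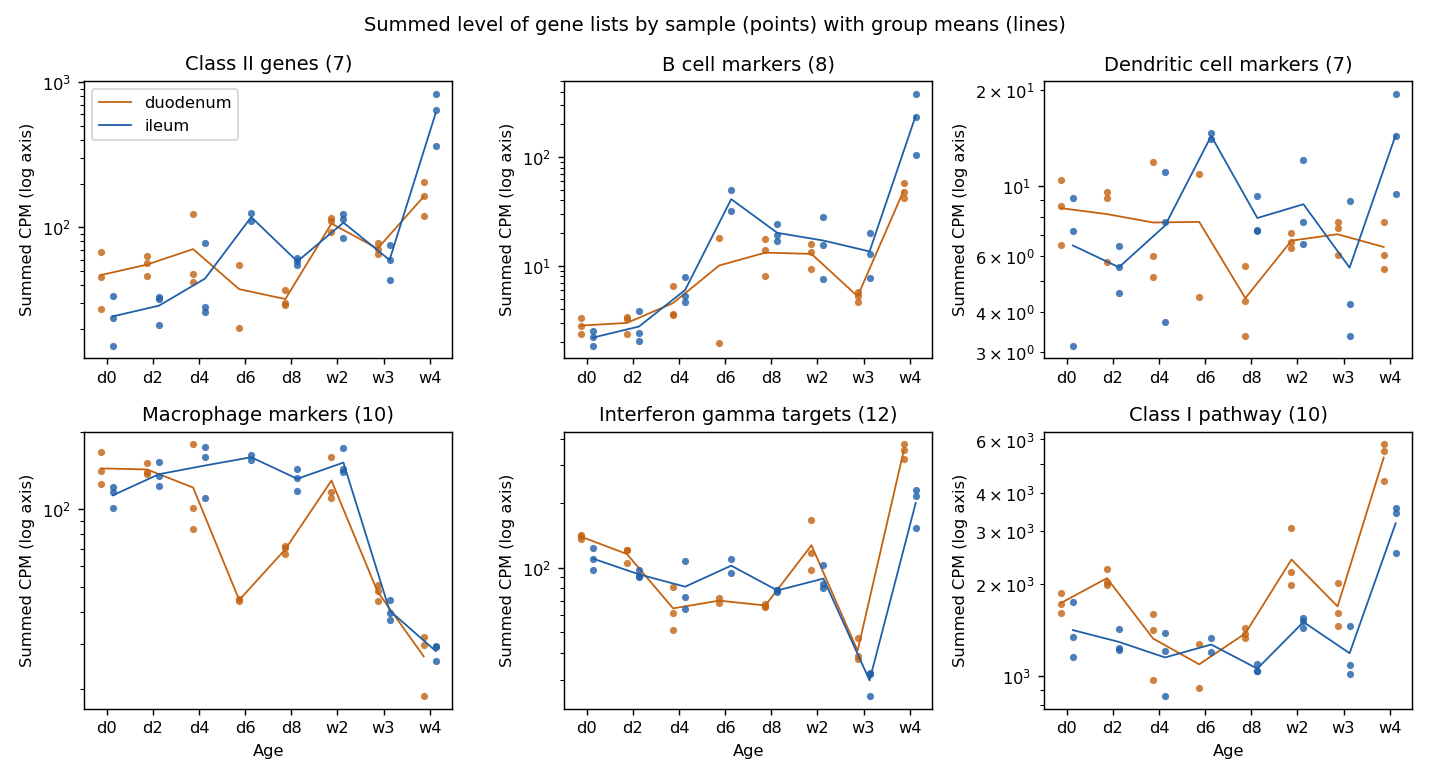
Summed level of 6 gene lists (CPM, log axis) against age, 1 point per sample with lines through the group means, duodenum in orange and ileum in blue. B cell markers peak with the class II genes in ileum week 4 (105 to 383 CPM), while macrophage markers are lowest at week 4 in both regions.

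Of the factors that act with Ciita, 2 of 7 were lower in ileum than in duodenum at week 4, and of the enzymes that prepare peptides, 2 of 6. No other gene of these lists was called with edgeR, while DESeq2 called 1 of the 6 enzymes higher in ileum. Of the promoter complex (Rfx5, Rfxap, Rfxank and the NF-Y subunits, with Creb1), 2 of 7 genes rose in each region from day 0 to week 4, with medians of 0.06 and 0.11 on the log2 scale. Nfyb, an NF-Y subunit, rose by 1.03 and Creb1 by 0.75 in ileum, and Rfx5 was not called in duodenum (log2 −0.37, adjusted p = 0.12). The lysosomal enzymes that cut antigen and the invariant chain went the other way: 5 of 6 fell in each region. Ctsl, cathepsin L, fell by 5.37 and Lgmn, legumain, by 4.70 on the log2 scale in ileum. Ctss, cathepsin S, which trims the invariant chain in B cells and dendritic cells, was not called (log2 0.48, adjusted p = 0.15).

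Interferon gamma is the main inducer of Ciita outside professional antigen-presenting cells. Ifng itself had 14 counts in all 46 samples, 6 of them in ileum week 4, and was not tested. Of its signalling genes, 4 of 7 rose in duodenum and 3 of 7 in ileum from day 0 to week 4. Socs1, a feedback inhibitor, rose from 0.409 ± 0.0967 to 5.79 ± 1.94 CPM in ileum. Among 12 target genes, 8 rose and 2 fell in duodenum and 9 rose and 1 fell in ileum. From week 3 to week 4 the ileum count was 12 of 12 (median log2 2.72). Ubd, a ubiquitin-like protein gene, had 0.0804 ± 0.1 CPM at ileum week 3, 17.3 ± 4.90 CPM at ileum week 4 and 7.25 ± 3.49 CPM at duodenum week 4. Between regions at week 4 the targets were split, 3 higher and 3 lower in ileum, with a median log2 ratio of 0.17. Their summed level, which the most abundant targets lead, was 153 to 231 CPM in ileum and 322 to 377 CPM in duodenum. The order of that sum was the reverse of the class II order. For the change from day 0 to week 4, DESeq2 called 4 of 12 targets higher in ileum than in duodenum and 0 lower. It called 7 of 7 class II members and 3 of 8 B cell markers higher in that comparison.

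Class I presentation serves CD8+ T cells. All 10 of its listed genes rose from day 0 to week 4 in both regions (median log2 1.99 in duodenum and 1.75 in ileum), among them Psmb8, an immunoproteasome subunit, and Nlrc5, the class I counterpart of Ciita. At week 4, 7 of the 10 were lower in ileum than in duodenum (median log2 ratio −0.67), and Psmb8 had 71.5 ± 11.3 CPM in ileum and 110 ± 8.89 CPM in duodenum. Of the costimulation genes, 3 of 6 rose and 1 fell in ileum, and 1 rose and 2 fell in duodenum. Cd40, a receptor for T cell help, had 5.04 ± 1.95 CPM in ileum week 4 and 1.06 ± 0.236 CPM in duodenum week 4, while the checkpoint ligand gene Cd274 rose in both regions.

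**Figure D5:**
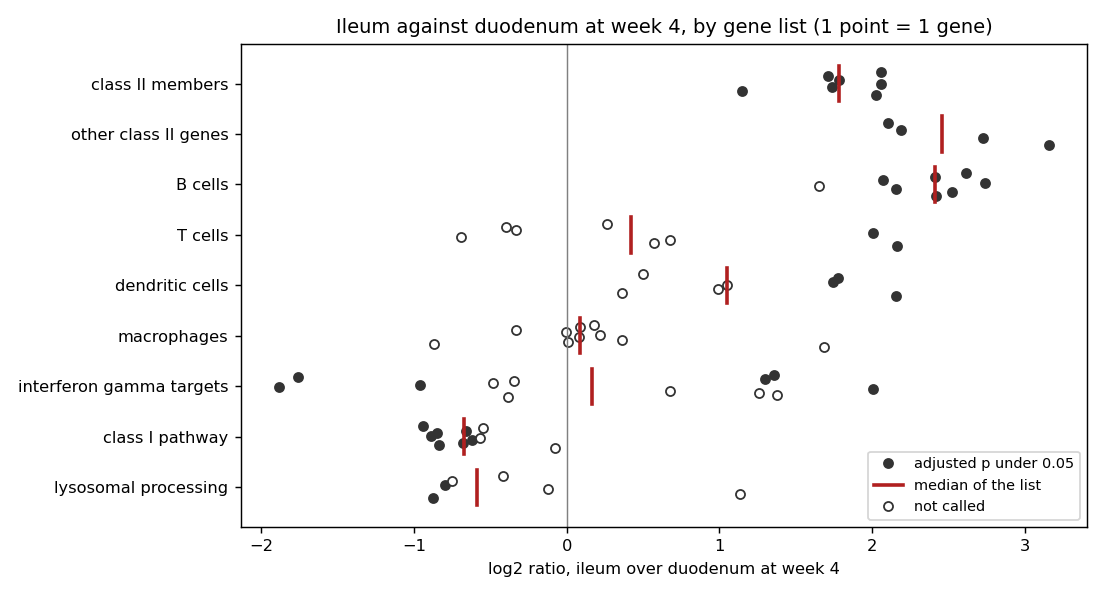
Log2 ratio of ileum over duodenum at week 4 (x axis), 1 point per gene in 9 lists, filled where the adjusted p was under 0.05, with a red bar at the median of each list. The class II, other class II and B cell lists lie to the right, class I genes to the left (median −0.67) and macrophage markers around 0.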

How the data were processed

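Total RNA of 48 mouse samples was sequenced. Per the submitters' processing notes, the tools were STAR 2.6.1d, Salmon 0.14.2 and DESeq2 1.30.1 with the mm10 build; their roles are not given in the sources used here. The authors deposited estimated counts per gene, already whole numbers, which model reads shared between genes. They also deposited a scaled signal per region (40 columns), which equalled the estimated count divided by 1 size factor per column and served here for gene symbols.

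Genes were kept by edgeR 4.0.16's filterByExpr, scaled by TMM, and fitted with 1 mean per region and age over 46 samples by the quasi-likelihood test in R 4.3.3. SEs are the log2 fold change divided by the root of F. CPM values are edgeR's counts scaled to the TMM library size. Alternatives included relative log expression scaling, DESeq2 1.42.0, other filters, other sets of samples and a sex term. The procedure was tested on simulated data.

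The labels do not say whether samples of a group came from separate animals, so p-values measure the spread between these samples. The labels do not say that a number marks 1 animal, and the numbers 1 to 3 were not taken as pairs.

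The members and lists were chosen with earlier results of these data known. Named are all 7 members. Of each list, the rule names the 2 genes with the largest called change from day 0 to week 4 in either region and the 1 with the smallest adjusted p not called; it also names the 8 genes most alike in profile. Xist, Ddx3y, region markers, Cd4 and the other list genes named outside that rule were chosen after their values were seen.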

Additional observations from a re-analysis of the deposited data

Results flagged for a closer look

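For 6 genes the rise from day 0 to week 4 differed between regions by the test of the difference itself (edgeR, adjusted over 21986 genes). In log2 units, ileum minus duodenum, it was 3.24 for H2-Aa (SE 0.56, adjusted p = 0.00051), 2.56 for H2-Ab1 (0.54, 0.0038), 2.85 for H2-Eb1 (0.61, 0.0041), 3.03 for Cd74 (0.62, 0.0027), 2.49 for Ciita (0.56, 0.0055) and 2.85 for H2-DMb1 (0.62, 0.0046). The 3 ileum week 4 samples lay above all others for each gene, as they did for 2.42% of the genes tested. The sex markers of duodenum day 0 numbers 2 and 3 were mixed, and without those samples the differences were 2.46 for H2-Aa (adjusted p = 0.0477), 1.90 for H2-Ab1, 2.00 for H2-Eb1, 2.18 for Cd74, 1.8 for Ciita and 1.99 for H2-DMb1, the last 5 of them not called.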

How the results depend on the processing

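No member of the family changed the sign of a called value under any alternative. Across the comparisons with at least 1 called member, 841 values kept their side of the threshold, 11 gained a call and 44 lost one. The counts of the 7 genes and of all genes called are those that depended on the processing, and the causes were not tested.

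With relative log expression scaling, 1 member was called from day 0 to day 8 in duodenum and 2 between regions at day 8 (0 each in the analysis reported). DESeq2 called 1 from day 0 to day 8 in duodenum, 1 between regions at day 0 and 3 at day 8. With a mean count of at least 10, the counts were 1 in duodenum from day 0 to day 8, 1 in ileum from week 2 to week 3 and 2 between regions at day 8. With no filter, 3 members were called in ileum from day 0 to day 8 (5), and the genes called were 886 in ileum from day 8 to week 2 (1460) and 894 between regions at day 0 (1342).

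With all 48 samples, 3 members were called in ileum from day 0 to day 8 and 4 in duodenum from day 8 to week 2 (7). Genes called were then 1528 in duodenum from day 8 to week 2 (3448), 417 in ileum from day 8 to week 2, 578, 2561 and 1376 between regions at day 0, week 2 (4922) and week 3 (3117), 947 for the interaction (4930) and 697 for the difference of changes (1317).

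Without the day 4 samples, members called were 1 in duodenum from day 0 to day 8, 2 in ileum from day 8 to week 2, 4 in ileum from week 2 to week 3, and between regions 4 averaged over ages, 1 at day 0 and 3 at day 8. Genes called were 3037 in ileum from day 8 to week 2, 4568 in duodenum from week 3 to week 4 (2794), 2419 and 5585 between regions at day 0 and week 3, 9512 for the interaction and 3146 for the difference of changes.

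With only the compared groups in the fit, members called were 1 in duodenum from day 0 to day 8, 4 in ileum from day 8 to week 2, 5 in duodenum and 3 in ileum from week 2 to week 3, 6 in duodenum from week 3 to week 4 (3) and 6 between regions at day 8. Genes called were 6278 in duodenum and 3472 in ileum from day 8 to week 2, 1527 in ileum from week 3 to week 4 (3534), 7426 and 2491 between regions at week 2 and week 4 (6234), and 377 for the difference of changes. This fit was not run for the interaction or the average over ages.

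A replicate block by number within region called 1 member in ileum from week 2 to week 3, and a replicate block by pairs of 1 age and number called 1 between regions at day 8; neither block moved another count by over 1.5 times. Over 23 pairs of 1 age and number the mean correlation of deviations from the group means was 0.155 and 16 exceeded 0.1, against −0.079 and 10 of 44 for pairs of other numbers. At days 2 and 4 and weeks 2 and 3 the sex of each number was the same in both regions. At day 4, however, the same numbers correlated at −0.259 (number 2) and −0.363 (number 3), while duodenum number 3 with ileum number 2 reached 0.730. At week 4 numbers 1 and 3 were also negative (−0.117 and −0.177). The mean and the sexes are hints of pairing from the data, not the design, and not every age shares them.

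Chosen after seeing the data, the fit without the duodenum day 0 samples that held both sex markers called 5521 genes from day 0 to week 4 (8909) and 5870 from day 0 to day 8 (9054) in duodenum, 82 between regions at day 0, and 266 genes with 1 member for the difference of changes (6). A sex term, also chosen then, moved no count by over 1.5 times.

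Leaving out each sample in turn gave 1 to 5 members and 2639 to 3685 genes in ileum from day 0 to day 8 (4234), 3 to 7 members and 825 to 3018 genes in duodenum from day 8 to week 2, and 60 to 1376 genes in ileum for the same step. It gave 1706 to 2738 genes in duodenum and 2331 to 4368 in ileum from week 3 to week 4. Between regions it gave 0 to 1 members averaged over ages, 0 to 1 members and 484 to 1280 genes at day 0, 3266 to 4301 genes at week 2, 1658 to 3112 at week 3 and 3256 to 7232 at week 4. For the difference of changes it gave 607 to 2288 genes. Depth limits the lowest values, such as Ciita at ileum day 0 (0.296 to 0.713 CPM).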

Other observations

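The samples left out, numbered 3 at day 6, carried these levels. The one labelled duodenum had 55.2 CPM of Cd74, 24.4 CPM of H2-Aa and 5.57 CPM of Ciita, with 0.115 CPM of the duodenum gene Pdx1 and 1.98 CPM of the ileum gene Fabp6. The one labelled ileum had 16.4 CPM of Cd74, 8.83 CPM of H2-Aa and 2.25 CPM of Ciita, with 14.5 CPM of Pdx1 and no count of Fabp6. The used ileum day 6 samples had 48 and 54.0 CPM of Cd74 and the used duodenum day 6 samples 22.4 and 6.36 CPM.

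Genes of the lists that were too sparse to test were H2-Ea, Ifng, Cd209a (117 counts in 46 samples), Il22 (14), Il23r (71) and Ncr1 (77).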
